A study of Mus musculus with 16 samples.

Results

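The 10 genes described here belong to the unfolded protein response and the integrated stress response: Hspa5, Herpud1, Dnajb9, Sel1l, Xbp1, Atf4, Atf3, Ddit3, Trib3 and Asns. They were found by gene name among the non-control probes of a 2-colour Agilent mouse array. All 10 were measured and tested, among 16685 genes with a signal above background. Total RNA from mouse liver was compared between 4 genotypes. The Nrf2 knockout (Nrf2-/-) lacks the transcription factor of the oxidative stress response. The Atg7 conditional knockout (Atg7F/F:Mx1-Cre, written Atg7 cKO) loses an enzyme that autophagosome formation needs. The double knockout (Atg7F/F:Mx1-Cre:Nrf2-/-) lacks both, and wild-type mice were the controls. Cre was driven by the Mx1 promoter and induced with the interferon inducer pIpC, and that promoter is active in many cell types besides hepatocytes. Per the labels, conditional knockout, double knockout and control mice were 8 weeks old when injected, and liver RNA was taken 4 weeks later. The controls therefore also received the inducer. The same age at injection and the same interval are recorded for the arrays of the Nrf2 knockout.

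Each comparison rested on 2 experiments, and each experiment was a pair of dye-swapped arrays averaged to 1 value. Experiments 1 and 4 set the Nrf2 knockout against wild type, 2 and 5 Atg7 cKO, and 3 and 6 the double knockout. In experiments 7 and 8 the double knockout was hybridised with Atg7 cKO on the same arrays. The labels do not say whether the 2 experiments came from separate animals. The p-values measure the spread between experiments. Sex-linked transcripts, given below, set experiments 1 to 3 apart from 4 to 6 in every channel. Each knockout thus had different RNA in its 2 experiments against wild type, so that spread is not technical alone. For experiments 7 and 8 the spread may be technical in part. Several members there followed the first and the second of these sets in turn, as given below, and whether the RNA differed was not tested. In experiments 1 to 6, between 43.4% and 57.2% of spots per channel were well above background. Precision is limited throughout by how few arrays there were.

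When misfolded proteins build up in the endoplasmic reticulum (ER), the sensors IRE1, PERK and ATF6 start the unfolded protein response. IRE1 splices Xbp1 mRNA, and XBP1 and ATF6 switch on chaperones such as BiP, the product of Hspa5, and parts of ER-associated degradation (ERAD). PERK phosphorylates eIF2alpha, as do the other kinases of the integrated stress response, and this favours translation of ATF4, which acts with CHOP (the product of Ddit3) and ATF3 on genes of amino acid supply and cell fate. Hepatocytes secrete most plasma proteins and hold an extensive ER.

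Promoter sequence was looked at because the ER response element (ERSE) and its shorter form ERSE-II are the known targets of ATF6 and XBP1, and the C/EBP-ATF response element (CARE) that of ATF4. The windows came from RefSeq (GRCm38.p6) and ran from 250 bases before to 50 after each start site, and all 10 members had one. ERSE was searched as CCAAT, any 9 bases and CCACG, ERSE-II as ATTGG, 1 base and CCACG, CARE as TGATGNAA, and the XBP1 element UPRE as TGACGTGG, on both strands. No 2 matches overlapped in a member. ERSE was present in 0.119% of all 32851 windows and in 1 of the 10 members, Hspa5. ERSE-II was present in 0.0365% of all windows and in 1 member, Herpud1. CARE was present in 3.97% of windows and in 4 members, Herpud1, Atf3, Trib3 and Asns, and UPRE in 0.676% and in 0 members. A match describes the letters of these windows and is not a measured binding site.

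The 150 bases before the start are printed for the 4 members whose promoters held a match there, with the match in capitals. Hspa5 (chr2:34771940-34772089, plus strand) and Herpud1 (chr8:94386279-94386428, plus strand) were the members called in the direct comparison of the double knockout with Atg7 cKO. Atf3 (chr1:191183334-191183483, minus strand) was higher in both, and Asns (chr6:7693210-7693359, minus strand) varied most between experiments.
Hspa5: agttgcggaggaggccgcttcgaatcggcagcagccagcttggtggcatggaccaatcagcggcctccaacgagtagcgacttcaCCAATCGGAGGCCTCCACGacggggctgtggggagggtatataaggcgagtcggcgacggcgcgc
Herpud1: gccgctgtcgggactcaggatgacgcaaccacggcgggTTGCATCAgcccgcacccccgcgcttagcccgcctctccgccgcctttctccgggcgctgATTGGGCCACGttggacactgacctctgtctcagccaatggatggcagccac
Atf3: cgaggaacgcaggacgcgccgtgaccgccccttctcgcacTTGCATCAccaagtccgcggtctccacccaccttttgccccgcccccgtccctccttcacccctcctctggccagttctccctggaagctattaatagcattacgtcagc
Asns: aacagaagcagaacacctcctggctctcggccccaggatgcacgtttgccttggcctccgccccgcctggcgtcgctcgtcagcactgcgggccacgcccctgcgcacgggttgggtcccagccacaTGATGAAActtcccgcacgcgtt
The ERSE of Hspa5 ended 47 bases before the start, and the ERSE-II of Herpud1 ended 42 bases before it. In Herpud1 the first block of capitals is the CARE on the opposite strand and the second is ERSE-II.

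The array held 15 probes for the members, 1 for each of 7 members and several for Trib3, Dnajb9 and Sel1l. The brightest probe stood for a gene, and those 10 probes were well above background in all 24 channels of experiments 1 to 6. Probes of 60 bases are printed for 3 regulators that each rest on a single probe, with no base marked.
Xbp1: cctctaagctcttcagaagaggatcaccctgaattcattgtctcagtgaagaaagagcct
Atf4: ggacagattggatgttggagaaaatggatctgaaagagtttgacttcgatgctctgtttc
Ddit3: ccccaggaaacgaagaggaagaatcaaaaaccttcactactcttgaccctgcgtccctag
The Xbp1 probe (mm9, chr11:5424970-5425029, plus strand) covered 60 unbroken genomic bases and gave 1 value per channel, not separated into spliced and unspliced mRNA. The Atf4 probe lay at chr15:80087079-80087138 and the Ddit3 probe spanned 304 genomic bases at chr10:126732518-126732821, both on the plus strand of mm9. The other probes the values rest on lay at chr2:34631630-34631689 for Hspa5, chr8:96919117-96919176 for Herpud1 and chr1:192994547-192994606 for Atf3. No gene annotation of mm9 was used here to place a probe in an exon.

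The targeted genes were checked first. Nfe2l2, the gene for Nrf2, had log2 ratios to wild type of -3.88 in the Nrf2 knockout, 1.20 in Atg7 cKO livers and -3.71 in double knockout livers. The brightest of its 3 probes gave those values, and another of them stayed between -0.06 and 0.06. Atg7 was at -0.05, -0.81 and -0.73 in the same order, on 1 of its 2 probes, and the other stayed between -0.08 and -0.03. In the deposited value table, whose signals carry no offset, the first Atg7 probe was at -0.11, -3.42 and -3.16. The other Atg7 probe was at -0.28, -0.31 and -0.24 there. The labels do not say which exons were deleted.

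Other cell types also differed between the livers. All 8 macrophage markers rose in both Atg7-deficient genotypes. Their summed signal was 28000 to 45300 in Atg7 cKO, 53700 to 56500 in the double knockout and 8590 to 8840 in the Nrf2 knockout, against 6790 to 9460 in wild type, and all 8 were well above background in every channel. Of 7 hepatocyte markers measured 6 were lower in Atg7 cKO livers and 5 in double knockout livers by limma, and their summed signal was 34000 to 36400 in Atg7 cKO and 33000 to 55300 in the double knockout, against 59100 to 103000 in wild type. All 7, Alb, Apoa1, Apoa2, Cps1, Hnf4a, Tat and Ttr, were well above background in every channel. Summed neutrophil markers were 645 to 1300 in Atg7 cKO and 2670 to 4580 in the double knockout, against 391 to 542 in wild type. Only 4 of the 7 neutrophil markers listed were tested. By limma 2 of those 4 rose in Atg7 cKO livers (median log2 ratio 0.43) and 3 in double knockout livers (1.14). Cxcr2 was well above background in 0 wild-type and 0 Nrf2 knockout channels, so it entered the test through the Atg7-deficient livers. Mpo was well above background in 4 of 12 wild-type channels. Summed cholangiocyte markers, of which 2 of 5 rose in each genotype, were 3510 to 3590 in Atg7 cKO and 3890 to 4560 in the double knockout, against 799 to 1030 in wild type. The median log2 ratio of those 5 markers was 0.16 for Atg7 cKO (range 0.06 to 2.55). For double knockout livers it was 0.08 (range -0.05 to 2.78). Most of the 5 thus moved little, and the sums do not show a rise shared by the list. Summed stellate cell markers, with 4 of 7 higher in each, were 3160 to 3540 in Atg7 cKO and 2740 to 3060 in the double knockout, against 1520 to 1700 in wild type. Endothelial markers summed to 2530 to 2900 in Atg7 cKO and 1670 to 2320 in the double knockout, where 3 of 6 fell and 1 rose, against 2640 to 2990 in wild type. Over all genes 23.2% were called higher and 16.2% lower in Atg7 cKO, and 21.2% and 15.9% in the double knockout. In bulk RNA, fewer cells of a type and less RNA per cell cannot be told apart, and the part of these shifts in the members' values was not tested.

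Experiments 1 to 3 and 4 to 6 formed sets that differed in sex-linked transcripts in every channel. Xist had a log2 signal of 5.75 to 5.80 in the first set and 10.87 to 11.35 in the second. The Y-linked Eif2s3y was at 8.21 to 8.54 in the first set and 5.82 to 5.87 in the second. Every knockout was thus measured once per set, with its wild-type partner from that set.

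Loss of Nrf2 alone moved none of the 10 members past the test. The question of this comparison is what Nrf2 loss does in livers with intact autophagy. The members' median log2 ratio of Nrf2 knockout over wild type was -0.06, against 0 over all genes, and 0 of 10 were called by limma at an adjusted p of 0.05, nor did any reach an unadjusted p of 0.05. Over all genes 0.012% were called in this comparison, 2 genes, while 617 had an unadjusted p under 0.05. Hspa5 stood at -0.04 and -0.20 in experiments 1 and 4, and Herpud1 at 0.12 and -0.38. The pair of values for Herpud1 lay on opposite sides of wild type.

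In Atg7 cKO liver the ER chaperone gene Hspa5, the ERAD genes Herpud1 and Sel1l and the transcription factor gene Atf4 were lower than in wild type, while Atf3 and Ddit3 were higher. Calls on both sides depended on how the arrays were scaled. Those of the 4 lower genes were lost under median centring and held with the deposited value table. That of Ddit3 held under median centring and was lost with the value table, and only Atf3 was called under every scaling. By limma 2 of the 10 members were called higher and 4 lower at an adjusted p of 0.05, with a median log2 ratio of -0.23, against 0 over all genes. In the whole series 39.4% of genes were called in this comparison, 23.2% higher and 16.2% lower, so calls were common among all genes too.

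**Figure D1:**
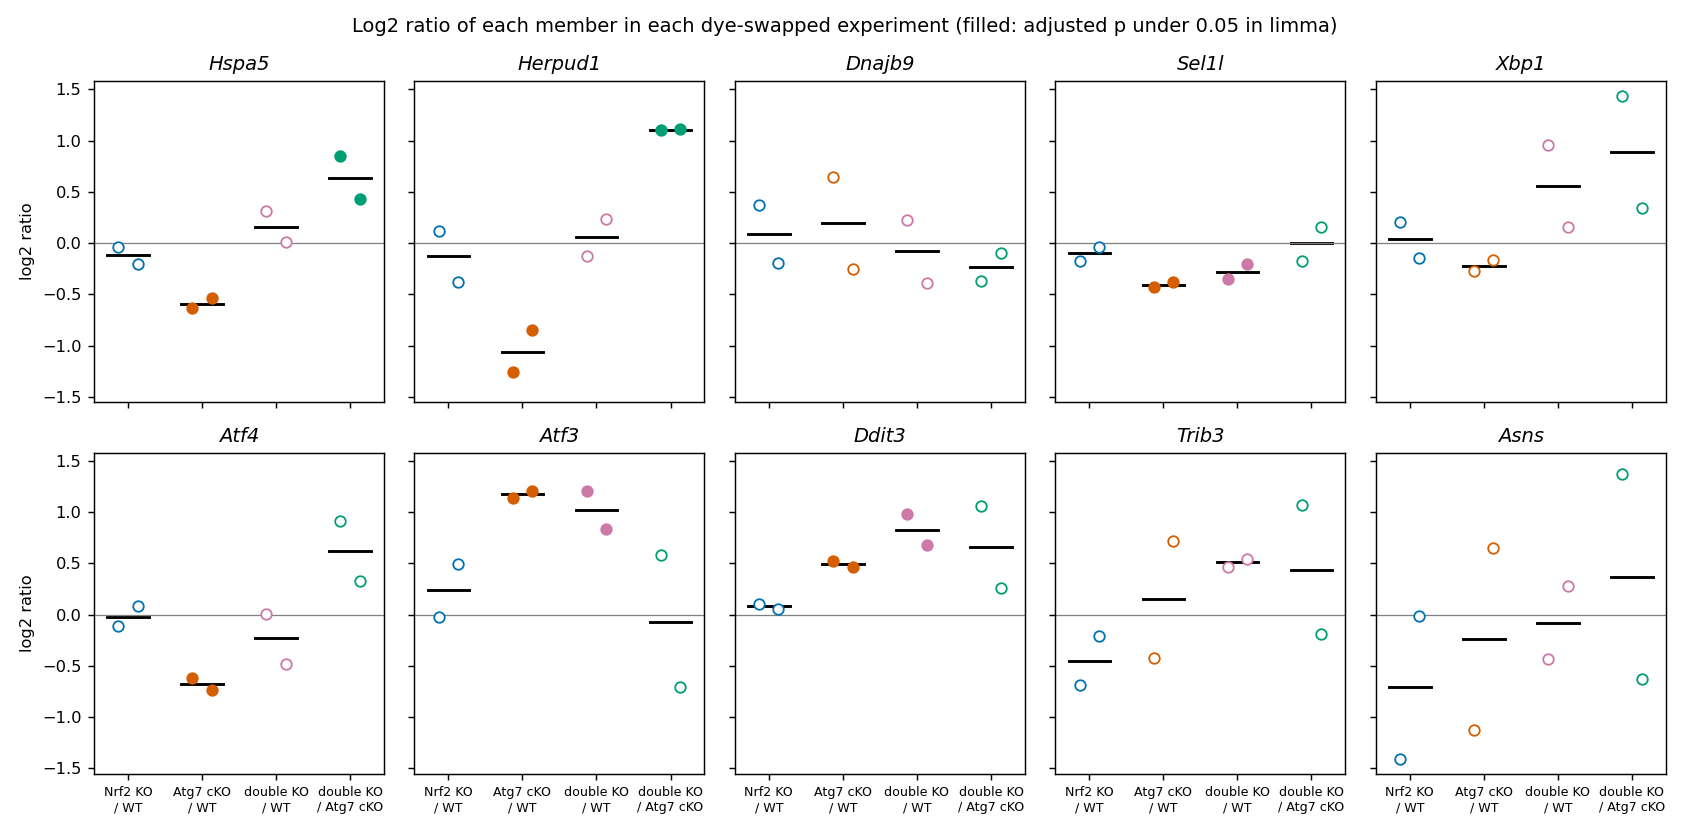
Log2 ratio of the 10 members in each experiment (points, 2 per comparison, the lower-numbered experiment on the left) and their mean (bar), for the 3 knockouts over wild type and the double knockout over Atg7 cKO. Filled points belong to comparisons called by limma: Hspa5 and Herpud1 lie below 0 in Atg7 cKO and above 0 in the direct comparison, while Atf3 and Ddit3 lie above 0 in both Atg7-deficient genotypes.

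Hspa5 encodes BiP, the main Hsp70 chaperone of the ER lumen, which binds nascent chains and holds the stress sensors inactive. Its log2 signal was 11.70 and 11.87 in Atg7 cKO liver, against a lowest, median and highest of 12.29, 12.37 and 12.62 in wild type over the 6 experiments. The labels do not say whether the wild-type values came from separate RNA, so here and below they are not 6 known replicates. The groups did not overlap. The log2 ratio was -0.63 and -0.54 in experiments 2 and 5, a mean of -0.59 ± 0.06 (SD, n = 2; limma adjusted p = 0.00636), which makes Hspa5 1.5-fold lower.

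Herpud1 encodes an ER membrane protein that brings ERAD components together. Its log2 signal was 11.01 and 11.04 in Atg7 cKO liver, against 11.77, 11.94 and 12.27 (lowest, median, highest) in wild type. Both knockout values lay below every wild-type value. The log2 ratio was -1.26 and -0.85, a mean of -1.06 ± 0.29 (SD, n = 2; limma adjusted p = 0.00767), or 2.08-fold lower, and it was the largest fall among the members.

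Sel1l, the adaptor of the Hrd1 ubiquitin ligase in ERAD, was at a log2 signal of 7.21 and 7.33 in Atg7 cKO, against 7.62, 7.71 and 7.81 in wild type. The groups did not overlap, and the fall was small: the log2 ratio averaged -0.41 ± 0.04 (SD, n = 2; limma adjusted p = 0.00632). A dimmer Sel1l probe in the same stretch of chromosome 12 averaged -0.15. The third Sel1l probe was well above background in 9 of 24 channels and averaged -0.10.

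Dnajb9, an ER co-chaperone of BiP known as ERdj4, did not pass the test. Its log2 ratio was 0.65 in experiment 2 and -0.25 in experiment 5, with opposite signs, and its other 2 probes also ran opposite ways between the sets.

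Among the regulators, Xbp1, whose spliced form drives ERAD and chaperone genes, was at log2 ratios of -0.27 and -0.16 and did not pass. Atf4, the main effector of the integrated stress response, fell. Its log2 signal was 7.64 and 7.48 in Atg7 cKO, against 8.20, 8.29 and 8.40 in wild type, with no overlap. The log2 ratio averaged -0.68 ± 0.08 (SD, n = 2; limma adjusted p = 0.0113).

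Atf3, a stress-induced repressor and activator downstream of ATF4 and of other signals, rose most of the members. Its log2 signal was 7.64 and 7.93 in Atg7 cKO, against 6.25, 6.55 and 6.83 in wild type. The log2 ratio was 1.14 and 1.21, a mean of 1.18 ± 0.05 (SD, n = 2; limma adjusted p = 0.00365), or 2.26-fold higher. In the deposited value table, whose signals carry no offset, the mean log2 ratio was 1.85.

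Ddit3 encodes CHOP, a C/EBP family factor tied to cell death under lasting ER stress. Its log2 signal was 7.15 and 7.49 in Atg7 cKO, against 6.63, 6.81 and 7.02 in wild type, and both knockout values were above every wild-type value. The log2 ratio averaged 0.49 ± 0.04 (SD, n = 2; limma adjusted p = 0.00788).

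The pseudokinase gene Trib3, a CHOP and ATF4 target, and Asns, the asparagine synthetase gene and a standard ATF4 target, did not pass the test. Trib3 stood at -0.42 and 0.72 and Asns at -1.13 and 0.65 in experiments 2 and 5. Both were below wild type in experiment 2 and above it in experiment 5.

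Scaling decided the calls of the 4 falls and of Ddit3. With each array centred on its median in place of loess, the median log2 ratio of all genes in Atg7 cKO moved to 0.21, and 6944 genes were called higher and 710 lower, against 3866 and 2705 with loess and 3299 and 3471 with the value table. Under median centring Hspa5 was at -0.19 (adjusted p = 0.399), Herpud1 at -0.64 (0.0813), Atf4 at -0.25 (0.163) and Sel1l at -0.02 (0.82), each by limma and none called. Relative to the median of all genes under that scaling, these values were -0.39, -0.85, -0.46 and -0.23. With the value table the 4 falls were called and Ddit3 was not (0.72, limma adjusted p = 0.0794). Without experiment 2 Herpud1 (-0.85), Atf4 (-0.74) and Ddit3 (0.47) lost their calls, at limma adjusted p-values of 0.0558, 0.0512 and 0.0541, and Trib3 (0.72) gained one at 0.0469. Without experiment 5 Atf4 (-0.62) and Ddit3 (0.52) lost theirs at 0.095 and 0.0551.

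**Figure D2:**
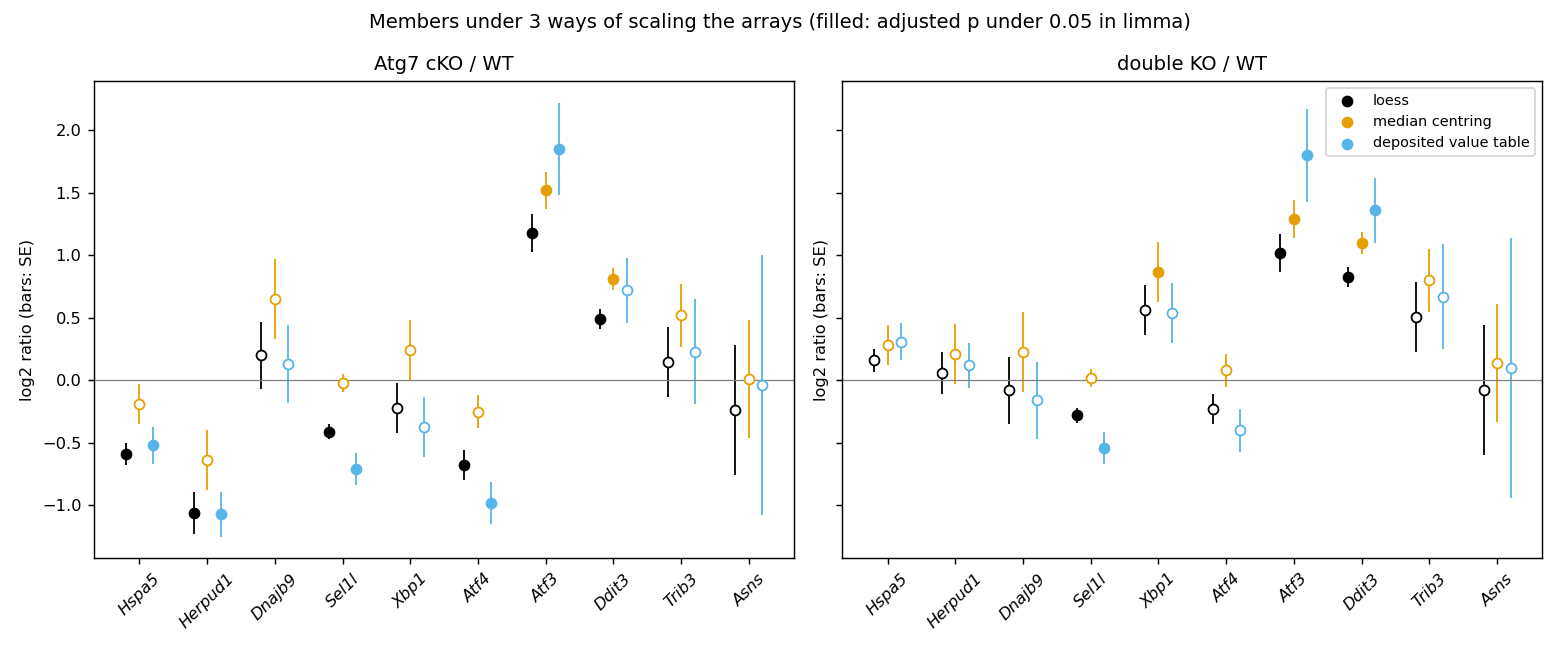
Log2 ratio (points) and its standard error (bars) of each member over wild type, for Atg7 cKO (left) and the double knockout (right), under loess, median centring and the deposited value table; filled points were called by limma. In Atg7 cKO, Hspa5, Herpud1, Atf4 and Sel1l lie lower under loess and the value table than under median centring, while Atf3 lies above 1 under all 3 in both panels.

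In the double knockout liver Atf3 and Ddit3 were again higher and Sel1l lower than in wild type, and Hspa5, Herpud1 and Atf4 did not pass the test. Here limma called 2 members higher and 1 lower, with a median log2 ratio of 0.11, against 0 over all genes, of which 37.1% were called in this comparison. Experiments 3 and 6 were set against wild type, as experiments 2 and 5 were, so the values of both genotypes are given side by side rather than as independent results.

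Hspa5 was at a log2 signal of 12.84 and 12.30 in the double knockout, against 12.29, 12.37 and 12.62 (lowest, median, highest) in wild type, and the groups overlapped. Its log2 ratio was 0.31 and 0.01 in experiments 3 and 6. Herpud1 was at a log2 signal of 11.93 and 12.01, against 11.77, 11.94 and 12.27 in wild type, and both values lay within the wild-type range. Its log2 ratio was -0.13 and 0.24. Atf4 was at 0.01 and -0.48, and Xbp1 at 0.96 and 0.16 (limma adjusted p = 0.081). For Xbp1 both values were above 0 but far apart.

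Atf3 reached a log2 signal of 8.04 and 7.38 in the double knockout, against 6.25, 6.55 and 6.83 in wild type. Its log2 ratio was 1.21 and 0.84, a mean of 1.02 ± 0.27 (SD, n = 2; limma adjusted p = 0.0056), or 2.03-fold higher. Ddit3 reached 7.72 and 7.64, against 6.63, 6.81 and 7.02 in wild type. Neither gene overlapped wild type. The Ddit3 log2 ratio was 0.98 and 0.68, a mean of 0.83 ± 0.22 (SD, n = 2; limma adjusted p = 0.00197), or 1.78-fold higher.

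Sel1l was at a log2 signal of 7.27 and 7.51, against 7.62, 7.71 and 7.81 in wild type, with a log2 ratio of -0.28 ± 0.10 (SD, n = 2; limma adjusted p = 0.0212). Under median centring it stood at 0.02, where the median of all genes was 0.14, so that relative to all genes it was at -0.12, and 5215 genes were then called higher and 872 lower, against 3534 and 2651 with loess and 3312 and 3797 with the value table. Trib3 was at 0.47 and 0.54, Asns at -0.43 and 0.28 and Dnajb9 at 0.23 and -0.39, none of them called. Xbp1 was called under median centring (0.87, limma adjusted p = 0.0435) and without experiment 6 (0.96, 0.019). Sel1l lost its call without experiment 3 (-0.20, 0.172) and without experiment 6 (-0.35, 0.0541). Without experiment 3 Atf3 also lost its call (0.84, limma adjusted p = 0.0538) and Atf4 gained one (-0.48, 0.0482). Without experiment 2 or 5 Trib3 was called (0.51, limma adjusted p = 0.04 in both).

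Set directly against Atg7 cKO on the same arrays, the double knockout had more Herpud1 and more Hspa5 mRNA. This comparison asks what loss of Nrf2 adds once Atg7 is gone, and its arrays are separate from those of the comparisons with wild type, though the labels do not say whether the RNA was. Of the 10 members 2 were called higher and 0 lower by limma, with a median log2 ratio of 0.53, against 0.01 over all genes, of which 14.8% were called in the direct comparison (6.72% higher). Herpud1 was at 1.10 and 1.11 in experiments 7 and 8, a mean of 1.10 ± 0.01 (SD, n = 2; limma adjusted p = 0.0124), or 2.15-fold higher. Hspa5 was at 0.85 and 0.43, a mean of 0.64 ± 0.29 (SD, n = 2; limma adjusted p = 0.0494), or 1.56-fold higher. The Hspa5 call sat at the threshold and was lost with any 1 of the 8 experiments left out (limma adjusted p of 0.0587 to 0.355). The Herpud1 call was lost without experiment 7 (0.11) or 8 (0.067) and held without any 1 of the other 6.

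The remaining members did not pass in the direct comparison. Xbp1 was at 1.44 and 0.34, Atf4 at 0.91 and 0.33 and Ddit3 at 1.06 and 0.26, each higher in the double knockout in both experiments. Atf3 (0.58 and -0.71), Trib3 (1.07 and -0.19) and Asns (1.37 and -0.63) were higher in experiment 7 and lower in experiment 8. Dnajb9 was at -0.37 and -0.10. Sel1l was at -0.17 and 0.16 on its brightest probe, while the dim probe that was well above background in 9 of 24 channels averaged 0.75.

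The same difference taken through wild type, from experiments 1 to 6, was 0.75 for Hspa5 (limma adjusted p = 0.041) and 1.11 for Herpud1 (0.0719), so that 1 member was called, with 4.96% of all genes called in that comparison. Within experiments 1 to 3 the difference was 0.94 for Hspa5 and 1.13 for Herpud1, and within experiments 4 to 6 it was 0.55 and 1.10. Xbp1 differed by 1.23 in the first set and 0.32 in the second, against 1.44 and 0.34 in experiments 7 and 8, and Trib3 by 0.89 and -0.18, against 1.07 and -0.19. Experiment 7 thus lay near the first set and experiment 8 near the second for these genes, so the direct values are not counted as an independent measurement.

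The interaction asks whether Nrf2 loss had a different effect in Atg7 cKO than in wild-type liver. None of the members was called, with 0.719% of all genes called and 2 members at an unadjusted p under 0.05. Those 2 were Hspa5 at 0.86 (limma adjusted p = 0.0939) and Herpud1 at 1.24 (0.165). A different effect of Nrf2 loss on these genes in the Atg7 cKO background was therefore not established.

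The wild-type levels of Asns, Trib3 and Dnajb9 differed between the sets of experiments. Wild-type channels had an Asns log2 signal of 7.75 to 8.06 in the first set (experiments 1 to 3) and of 6.08 to 6.18 in the second, a difference in means of 1.76. For Trib3 the wild-type means were 8.09 and 6.75, and for Dnajb9 8.73 and 9.44. The other 7 members differed by 0.29 or less between the sets.

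The Asns ratios also differed between the sets. In experiments 1, 2 and 3 its log2 ratios to wild type were -1.41, -1.13 and -0.43, and in experiments 4, 5 and 6 they were -0.01, 0.65 and 0.28. The Asns log2 signal was 6.49 and 6.17 in Nrf2 knockout liver and 6.62 and 6.73 in Atg7 cKO, in the first and second set. Those values all lay below the wild-type values of the first set, and only the wild-type level and the double knockout (7.63 and 6.45) changed by over 1 between the sets. Dnajb9 ran the other way, with ratios of 0.37, 0.65 and 0.23 in the first set and -0.19, -0.25 and -0.39 in the second. Set and the sex-linked transcripts cannot be told apart here, and slides, which carried experiments 1 and 2, 3 and 4, and 5 and 6, cut across the sets in part.

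**Figure D3:**
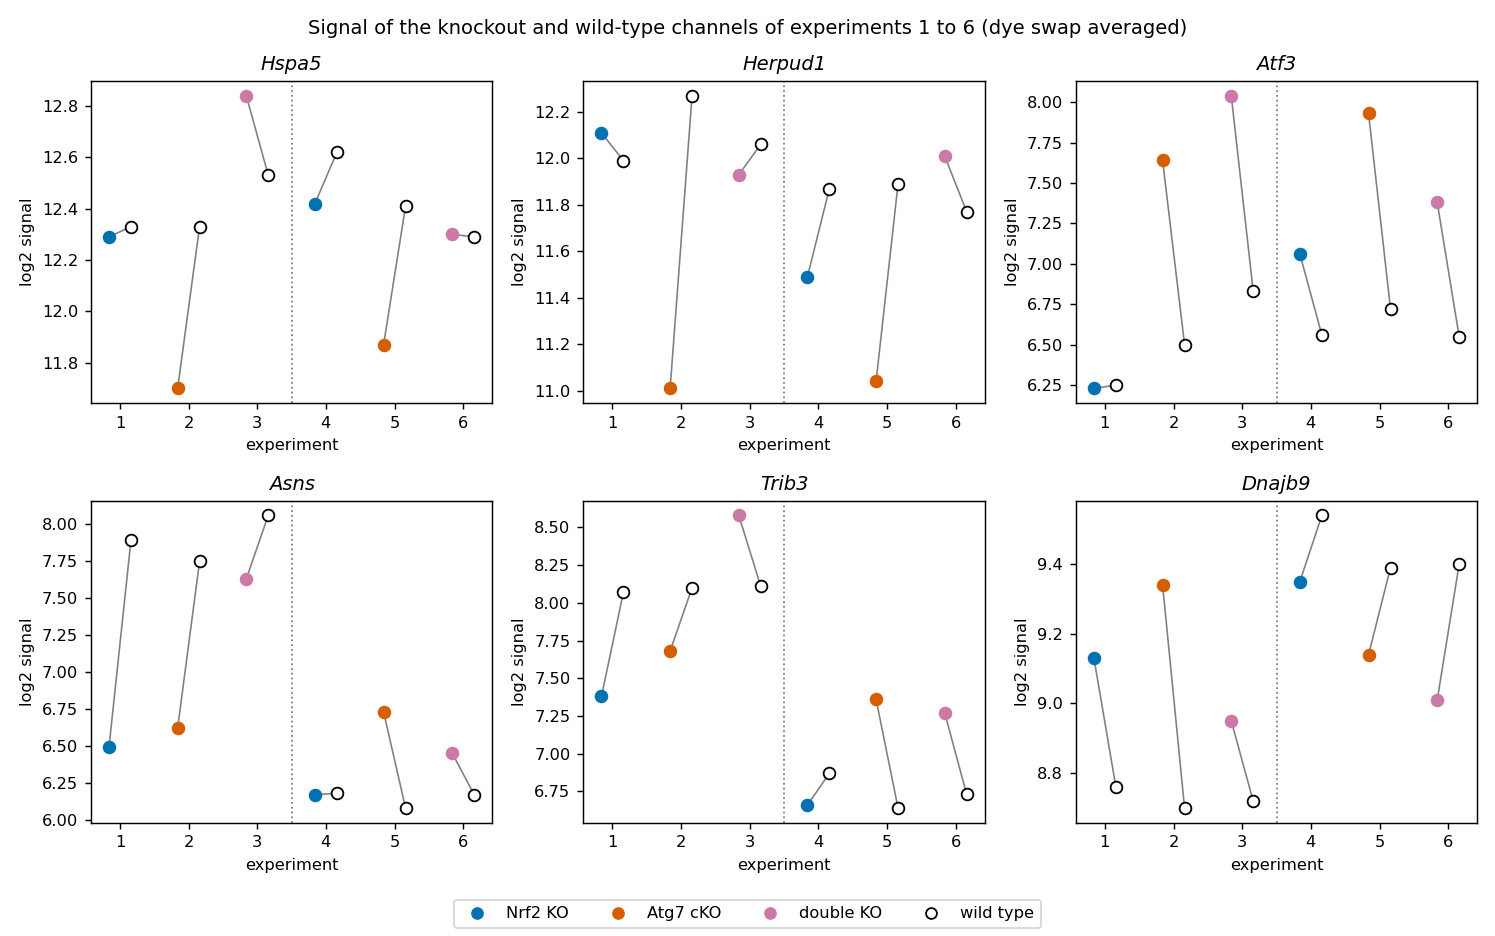
Log2 signal of 6 members in the knockout channel (coloured, left of each pair) and the wild-type channel (open, right) of experiments 1 to 6; the dotted line parts the 2 sets. Open points of Asns and Trib3 sit higher in experiments 1 to 3 than in 4 to 6, and those of Dnajb9 lower, while Hspa5 and Herpud1 are low in Atg7 cKO in both sets.

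Among 20 other ER chaperones and folding enzymes 13 fell and 1 rose in Atg7 cKO with loess, with a median log2 ratio of -0.41, where 16.2% of all genes were called lower and 23.2% higher. With the deposited ratios of that comparison 12 fell and 0 rose (median -0.48), whereas under median centring 0 fell and 3 rose (median 0.03, which is -0.18 relative to all genes). Of all 16685 genes, 3299 were called higher and 3471 lower with the deposited ratios, and 6944 and 710 under median centring. The largest falls were those of Sdf2l1, an ER chaperone partner, at -0.99 (limma adjusted p = 0.011) and Calr, the glycoprotein chaperone calreticulin, at -0.96 (0.00589). The oxidase gene Ero1a was the rise, at 0.22 (0.0192). Of the same 20 genes 6 fell and 1 rose in the double knockout (all genes 15.9% lower and 21.2% higher), with a median of -0.14 by loess and 0.12 under median centring, and P4hb, a protein disulfide isomerase gene, was at -0.61 (limma adjusted p = 0.0213) and Hyou1, an ER chaperone gene, at -0.46 (0.0317). In the direct comparison 3 were higher in the double knockout and 0 lower (all genes 6.72% and 8.06%), with Calr at 0.82 (0.0499) and Creld2, an ER folding factor gene, at 0.54 (0.0212). The falls in Atg7 cKO numbered 8 without experiment 2 and 8 without experiment 5, those in the double knockout 1 without experiment 3 and 2 without experiment 6, and the direct call of Calr was lost under every alternative run.

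Of 16 genes of ERAD, 3 rose and 4 fell in Atg7 cKO, which is 7 of 16 called where 39.4% of all genes were. Their median was -0.18 by loess, and under median centring it was 0.26 (0.05 relative to all genes), with 6 higher and 0 lower. Under that scaling 6944 of all 16685 genes were called higher and 710 lower. Called shares near those of all genes are no result about ERAD. Os9, a lectin that picks ERAD clients, was at -0.57 (limma adjusted p = 0.0026) and Derl2, an ER membrane derlin gene, at -0.34 (0.0117), while Edem2 was at 0.37 (0.0239) and Ube2j1, a ubiquitin-conjugating enzyme gene, at 0.33 (0.0442). Among these 16 genes 3 rose and 2 fell in the double knockout, where 21.2% of all genes were called higher and 15.9% lower. The falls were again Os9 at -0.42 (limma adjusted p = 0.00616) and Derl2 at -0.38 (0.00805). In the direct comparison 6.72% of all genes were called higher and 8.06% lower. Directly, 1 gene, Selenos, was higher in the double knockout, at 0.51 (0.0358), a call that held under 3 of 13 alternatives and was lost with any 1 of the 8 experiments left out. Without experiment 5, 0 genes rose and 2 fell in Atg7 cKO, without experiment 2 these were 1 and 2, and Derl2 was at 0.08 there under median centring, which is -0.13 relative to all genes. Without experiment 3, 0 of the 16 were called in the double knockout, and without experiment 6, 1 rose and 1 fell.

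Of 15 stress sensors and genes of eIF2alpha control 5 rose and 3 fell in Atg7 cKO, with a median of 0.10, where 23.2% of all genes were called higher and 16.2% lower. Under median centring 10 rose and 0 fell in Atg7 cKO, with a median of 0.37 (0.16 relative to all genes), and 9 rose and 0 fell in the double knockout. That scaling called 6944 of all 16685 genes higher and 710 lower in Atg7 cKO, and 5215 and 872 in the double knockout. Creb3l2 (0.54) and Creb3 (0.44), which encode membrane-bound transcription factors, led the rises. Ppp1r15b, a regulatory subunit that directs eIF2alpha dephosphorylation, was at -0.62 (limma adjusted p = 0.00452) and Creb3l3, a liver-enriched membrane-bound factor, at -0.37 (0.0199). The double knockout had 5 rises and 2 falls in this list, where 21.2% of all genes were called higher and 15.9% lower. Creb3 was at 0.71 (limma adjusted p = 0.00263) and the PERK gene Eif2ak3 at 0.51 (0.00713). Eif2b5, a subunit of the eIF2 exchange factor, was at -0.29 (0.0117) and Creb3l3 at -0.72 (0.00305). In the direct comparison 6.72% of all genes were called higher and 8.06% lower. Directly, Eif2ak3 was the 1 called gene, 0.85 higher in the double knockout (0.0363), a call that held under 3 of 13 alternatives, with values of 0.42 to 1.08. With the mean over probes 0 of the list were called higher and 1 lower. Without experiment 5, 0 rose and 1 fell in Atg7 cKO, and without experiment 2, 2 rose and 3 fell. Without experiment 3, 1 rose and 1 fell in the double knockout, and without experiment 6, 2 rose and 1 fell. Under median centring Creb3l3 in Atg7 cKO was at 0.05 and Eif2b5 in the double knockout at 0.01, which is -0.16 and -0.13 relative to all genes.

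Targets of ATF4 and CHOP divided. In Atg7 cKO 12 of 27 rose and 3 fell, where 23.2% of all genes were called higher and 16.2% lower. The targets had a median of 0.35 by loess, 0.40 under median centring and 0.98 in the value table. Relative to the median of all genes these were 0.34, 0.20 and 1.06. The mTORC1 inhibitor gene Ddit4 was at 1.43 (limma adjusted p = 0.02) and the hepatic hormone gene Fgf21 at 1.35 (0.00128). The falls included Atf5, an ATF4-related factor, at -1.64 (0.000281) and Cth, a transsulfuration enzyme gene, at -1.06 (0.00872). Double knockout liver showed 14 rises and 3 falls, where 21.2% of all genes were called higher and 15.9% lower, with Ddit4 at 1.71 (0.0118), the C/EBP factor gene Cebpb at 1.68 (0.00121), the mitochondrial serine enzyme gene Shmt2 at -1.32 (0.000694) and Cth at -1.73 (0.00232). Without experiment 5 the Atg7 cKO counts were 7 and 2, and in the double knockout they were 6 and 3 without experiment 3 and 7 and 3 without experiment 6.

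In the direct comparison 5 targets were higher in the double knockout and 4 lower, where 6.72% of all genes were called higher and 8.06% lower. Cebpb was at 1.36 (limma adjusted p = 0.00577) and the stress protein gene Nupr1 at 1.17 (0.0104). The cystine transporter gene Slc7a11, which is also a known Nrf2 target, was at -2.97 (0.0208), from -1.97 and -3.97 in the 2 experiments. Through wild type it was at -0.41 (0.137). The direct values came from the deposited ratios, whose signals carry no offset. The value through wild type came from signals with an offset, so these sizes are not on the same scale. The direct call of Slc7a11 held under 9 of 13 alternatives. Also lower was the translation repressor gene Eif4ebp1, at -1.12 (limma adjusted p = 0.0131). Cebpb (1.93) and Atf5 (0.89) were the 2 of 27 called for the interaction, each at a limma adjusted p of 0.049. Over all genes 0.719% were called for the interaction. The interaction call of Cebpb held under 2 of 12 alternatives and that of Atf5 under 3. Without experiment 7 the direct comparison had 0 targets higher and 1 lower, and without experiment 8 it had 4 higher and 1 lower.

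Of 11 cytosolic aminoacyl-tRNA synthetases, which charge tRNAs and include known ATF4 targets, 4 rose and 3 fell in Atg7 cKO, where 23.2% of all genes were called higher and 16.2% lower. Their median was -0.08 by loess, and under median centring it was 0.38 (0.17 relative to all genes), with 6 higher and 0 lower. Of all 16685 genes 6944 were called higher and 710 lower under that scaling. Gars was at 0.89 (limma adjusted p = 0.00177) and Sars at 0.37 (0.00514), while Tars was at -0.78 (0.00153) and Mars1 at -0.40 (0.00295). In the double knockout 3 rose and 2 fell, where 21.2% of all genes were called higher and 15.9% lower. Wars was at 0.87 (limma adjusted p = 0.00107), Lars at 0.38 (0.00907), Tars at -0.78 (0.00145) and Mars1 at -0.42 (0.00262). Directly, Wars was 0.82 higher (0.0101) and Gars 0.97 lower in the double knockout (0.0142), where 6.72% of all genes were called higher and 8.06% lower. Without experiment 5, 2 rose and 2 fell in Atg7 cKO, without experiment 3, 1 rose and 2 fell in the double knockout, and Mars1 in Atg7 cKO was at 0.04 under median centring, which is -0.16 relative to all genes. In the Nrf2 knockout 0 of the 89 genes of the 5 lists were called by limma, and 5 had an unadjusted p under 0.05.

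**Figure D4:**
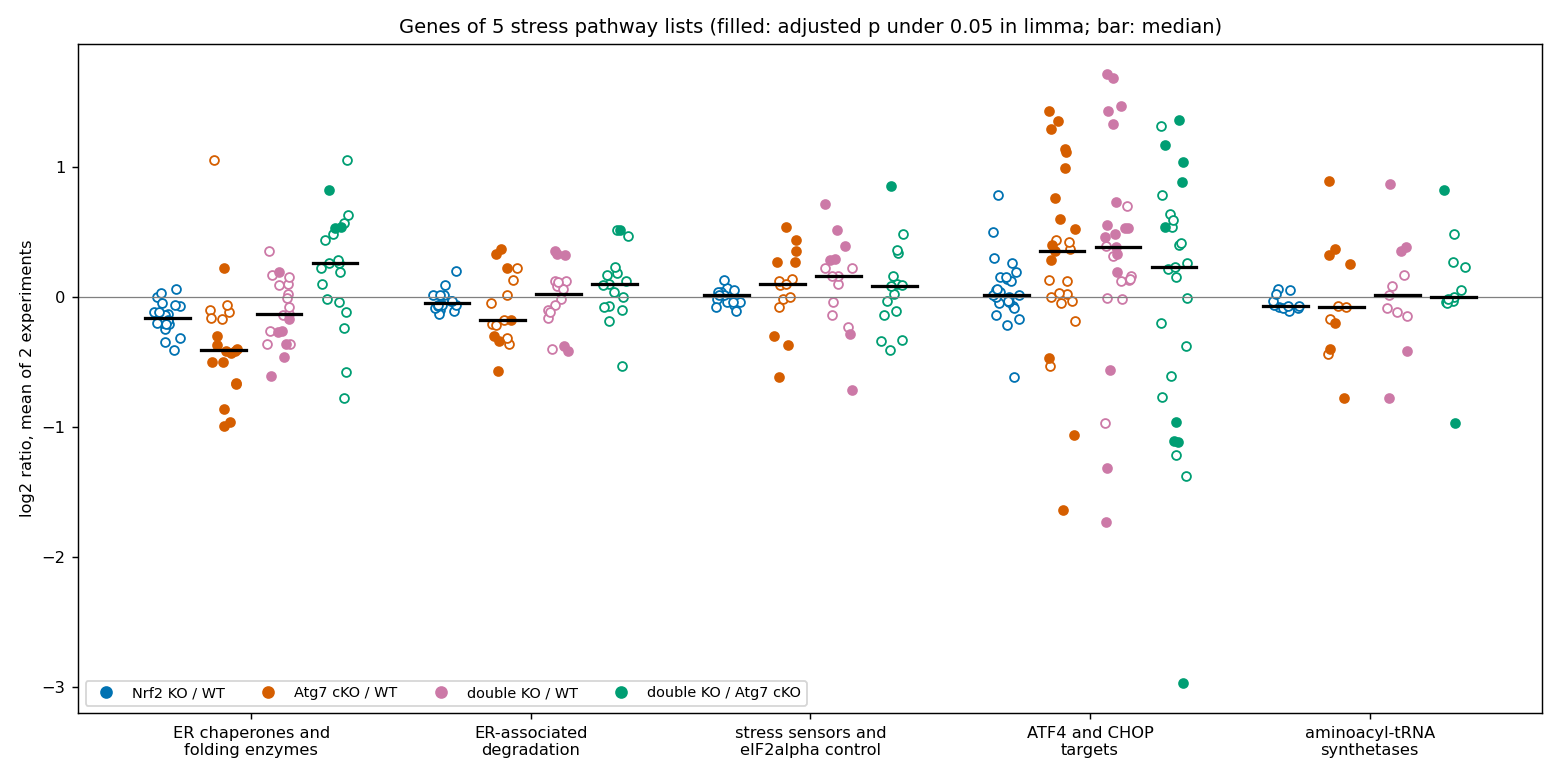
Log2 ratio (mean of 2 experiments) of each gene of the 5 pathway lists in the 3 comparisons with wild type and in the direct comparison; filled points were called by limma and bars are medians. ER chaperones lie mostly below 0 in Atg7 cKO (median -0.41), and targets of ATF4 and CHOP spread from -1.64 to 1.43 there.

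The genes whose log2 ratios were closest to those of Hspa5 over the 8 experiments of the value table were Mon1b, Hsp90b1, the gene of another abundant ER chaperone, and Pih1d2, at root-mean-square differences of 0.111, 0.135 and 0.137. For Hsp90b1 the ratios were -0.68 and -0.53 for Atg7 cKO and 0.38 and -0.07 for the double knockout, both over wild type, and 0.93 and 0.34 in the direct comparison. For Herpud1 the closest genes were Terc (0.243), Nfil3 (0.256) and Vtn (0.258), and for Atf3 G6pdx (0.324), Atad2 (0.341) and Jun (0.347). These are descriptions over 8 experiments, each a pair of dye-swapped arrays, and the labels do not say which experiments shared RNA.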

How the data were processed

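Liver RNA of 4 mouse genotypes was measured on 16 Agilent 2-colour arrays, 8 dye-swapped experiments, from 500 ng of total RNA. The deposited scanner intensities of 12 arrays came from Agilent Feature Extraction 9.5.1.1 on mm9 probe positions, per the file headers (9.5.1 per the submitters' processing notes). The deposited value table holds log10 ratios of Cy5 over Cy3 made by the authors for all 16 arrays. Its values differ from the scanner files' processed log10 ratios by less than 0.005, and its column medians are 0. Experiments 7 and 8 were read from that table, as given and converted to log2.

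Mean signal and median background were corrected with normexp (offset 50) and normalised by loess within each array, control spots at weight 0 and outlier spots left out. Signals were also quantile-normalised between arrays on mean brightness to give the log2 signals. Probes well above background in 4 or more of the 24 channels entered the test, and the brightest stood for a gene, named through RefSeq where its accession or symbol matched. Log2 ratios, knockout over partner, were averaged over the dye swap and fitted with limma 3.58.1 (R 4.3.3) as 3 group means over experiments 1 to 6, or 4 over experiments 1 to 8, all from the deposited ratios, for the direct comparison. P-values were adjusted by Benjamini-Hochberg over 16685 genes, with 0.05 as threshold and 3 and 4 residual degrees of freedom. The fits were tested on simulated data. Alternatives were median centring, the value table, other filters and probe rules, slide or set as a block and leaving out each experiment.

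The members, the pathway lists and the cell type markers were chosen with earlier results of these data known. Named from each pathway list are the 2 largest rises and 2 largest falls past the threshold in each comparison, and the 3 genes closest to Hspa5, Herpud1 and Atf3. The sex-linked transcripts were chosen after their values were seen.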

Additional observations from a re-analysis of the deposited data

How the results depend on the processing

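Calls rest on 2 experiments per comparison, and genes near the threshold depend on which experiments and which scaling enter the fit. Of the members called in Atg7 cKO, 6 with loess, 2 remained under median centring (Atf3 and Ddit3), and 5 to 6 under the other alternatives that kept all experiments. Without experiment 2 Herpud1, Atf4 and Ddit3 lost their calls and Trib3 was added. Without experiment 5 Atf4 and Ddit3 lost theirs. In the double knockout 3 were called. Without experiment 3 Sel1l and Atf3 lost their calls and Atf4 was added, and without experiment 6 Sel1l was lost and Xbp1 added. Without experiment 2 or 5 Trib3 was added. With slide as a block Asns was added there (-0.61, limma adjusted p = 0.0151), and with the set as a block Xbp1 (0.56, 0.0412). For the direct comparison, with 2 calls, 1 was made with no filter on dim probes, with the mean over probes, with slide as a random block or through wild type, and 0 with experiments 7 and 8 alone. Leaving out 1 experiment gave 0 to 1. The Nrf2 knockout and the interaction had 0 called members under every alternative run. Slide as a fixed block could not be fitted for the direct comparison. Where 1 experiment of a comparison is left out, the lone one is assumed to vary like the other groups. The causes were not tested.

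Over all genes, calls in Atg7 cKO numbered 6571, and 3207 without experiment 5. In the double knockout there were 6185, and 2853 without experiment 3 or 3423 without 6. The direct comparison had 2466, and 107 with experiments 7 and 8 alone, 307 without 7, 1209 without 8 and 1448 without 1 or 4. The interaction had 120, ranging from 0 with slide as a block to 330 with the set as a block and 6 with the value table, and the Nrf2 knockout had 2, ranging from 0 to 11.

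Signs turned mostly for values that were not called. Among the members and named genes, called values that turned under median centring were those of Sel1l in the double knockout (0.02), Creb3l3 (0.05), Derl2 (0.08) and Mars1 (0.04) in Atg7 cKO and Eif2b5 (0.01) in the double knockout, and each stayed below the median of all genes under that scaling (0.21 for Atg7 cKO, 0.14 for the double knockout). Under median centring the Nrf2 knockout values of Hspa5, Herpud1 and Atf4 were 0.02, 0.01 and 0.10, the Atg7 cKO values of Xbp1 and Asns 0.24 and 0.01, and the double knockout values of Atf4, Asns and Dnajb9 0.08, 0.14 and 0.23. With slide as a block Herpud1, Xbp1 and Dnajb9 were at 0.00, -0.08 and -0.16 in the Nrf2 knockout, Dnajb9 at 0.17 in the double knockout, and Asns and Dnajb9 at -0.19 and 0.12 for the interaction. Asns in the double knockout was 0.10 in the value table. Sel1l in the direct comparison was 0.16 over the mean of its probes and 0.13 through wild type.

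With 1 experiment left out, the ranges of turned values were as follows. In the Nrf2 knockout they were -0.38 to 0.12 for Herpud1, -0.14 to 0.21 for Xbp1, -0.11 to 0.08 for Atf4, -0.02 to 0.49 for Atf3 and -0.19 to 0.37 for Dnajb9. In Atg7 cKO they were -1.13 to 0.65 for Asns, -0.25 to 0.65 for Dnajb9 and -0.42 to 0.72 for Trib3. In the double knockout they were -0.43 to 0.28 for Asns, -0.13 to 0.24 for Herpud1, -0.48 to 0.01 for Atf4 and -0.39 to 0.23 for Dnajb9. For the interaction they were -0.02 to 1.77 for Asns and -0.82 to 0.08 for Dnajb9. In the direct comparison they were -0.19 to 1.07 for Trib3, -0.63 to 1.37 for Asns, -0.17 to 0.16 for Sel1l and -0.71 to 0.58 for Atf3. No paired analysis was possible because the labels give every comparison experiment numbers of its own, so no number is shared between groups. The sets, experiments 1 to 3 and 4 to 6, were fitted as a block in its place, and among the members that added Xbp1 in the double knockout and changed no other call.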
